A study of Homo sapiens with 4 samples.

Results

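ChIP-seq of MYC in HAP1 cells gave 331 peaks that fell on later exons of protein-coding genes and shared no base with a peak of H3K27ac. They made up 19.2% of the 1723 MYC peaks and 35.3% of the 939 MYC peaks without H3K27ac. With each peak counted for 1 gene, they were given to 282 genes. For 17 peaks the summit also lay in a later exon of a second gene record of the annotation, for 1 of them a record with the same symbol (MATR3), and 298 records held a peak when these were counted too. These peaks were selected on measured values, namely the position of the MYC summit and the absence of an H3K27ac peak over the MYC peak. The summit had to lie inside an exon of a protein-coding gene and inside no first exon of any transcript of that gene, and peaks with their summit in an exon of a pseudogene were left out. The later-exon position and the lack of H3K27ac are therefore how the peaks were chosen, and no test was applied to them or to their fold enrichment. Genes for chaperones, translation factors, ribosomal proteins, hnRNPs and glycolytic enzymes were among them. Peaks in the 3′ UTR numbered 258, and 73 were in coding sequence.

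HAP1 is a human line, near-haploid per the labels, that comes from the leukemia line KBM-7. Per the study, the cells used for ChIP-seq were wild type, apart from its genome-edited cells. The 4 samples were chromatin precipitated with an antibody against MYC, with an antibody against H3K27ac or with normal IgG of rabbit, and DNA of the input that was not precipitated. MYC peaks had been called against input and H3K27ac peaks against IgG, with 1 library each, so that no value below has a replicate. The peak lists give no read depth, and the depth behind each peak is not known from them. Of the other MYC peaks, 784 overlapped H3K27ac by at least 1 bp, 202 had no H3K27ac and a summit in an exon of a pseudogene, and 406 had no H3K27ac and lay elsewhere.

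MYC is a transcription factor that pairs with MAX and binds DNA at the E-box CACGTG, mostly in promoters and enhancers. Acetylation of lysine 27 of histone H3 marks promoters and enhancers that are active. Later exons are far from these elements in most genes, and they differ from promoters in that they remain in the spliced RNA. Spliced RNA is also what gives rise to processed pseudogenes, which are copies of an mRNA without its introns that were written back into the genome by reverse transcription.

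The bases at the borders of some exons are printed below, with the distance from the border to the end of the peak. All sequences are from GRCh37 (hg19) and are written 5′ to 3′ on the strand of the gene. In the first set, 15 bases of the exon are in capitals and 15 bases of the intron in lower case. Exon 10 of HSP90AA1, which encodes a cytosolic HSP90, carried the coding peak with the highest fold enrichment. This peak (chr14:102548550-102548768) began 13 bp inside the 5′ edge of the exon and ended 102 bp before its 3′ edge. The peak over exon 9 of the same gene (chr14:102549398-102549611) ended 28 bp and 27 bp inside its 5′ and 3′ edges. The 15 exon bases printed for the 3′ edge of exon 9 do not reach this peak. The peak over exon 11 of HSPD1, the mitochondrial chaperonin HSP60, reached 5 bp past the 5′ edge, and that over exon 3 of RPS4X, a protein of the small ribosomal subunit, reached 3 bp past it. RPS4X was chosen for this print after its values were seen.
HSP90AA1 exon 10, 5′ edge, chr14:102548767-102548796, minus strand: actttttgattacagGTGGTTGTGTCAAAC
HSP90AA1 exon 9, 3′ edge, chr14:102549356-102549385, minus strand: AAAAAAGTTGAAAAGgtatgtgaatacagc
HSPD1 exon 11, 5′ edge, chr2:198352746-198352775, minus strand: gaaatttctctgtagGTATAGAAATTATTA
RPS4X exon 3, 5′ edge, chrX:71495560-71495589, minus strand: tttttaacgttacagGCTCCTCGTCCATCC

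Many of these exons have near-identical copies elsewhere in the genome. To show how close the copies are, the 30 bases around the summit of coding peaks are set beside the same stretch of a copy, with the bases that differ in capitals. Over the whole aligned window, identity was 97.0% for the pair of HSP90AB1 and HSP90AB2P, for the pair of TCP1 and TCP1P3 and for the pair of HSPD1 and HSPD1P1, and it was 99.5% for EEF1A1 and EEF1A1P6. TCP1, a subunit of the cytosolic chaperonin, was also picked for this print after its values were seen.
HSP90AB1 exon 6, chr6:44218162-44218191, plus strand: Cggtaaggataagaagaagaaaactaagaa
HSP90AB2P, chr4:13338884-13338913, plus strand: Tggtaaggataagaagaagaaaactaagaa
TCP1 exon 12, chr6:160200142-160200171, minus strand: gaattgatgatcttaTtaaattacatccag
TCP1P3, chr12:20095858-20095887, plus strand: gaattgatgatcttaCtaaattacatccag
HSPD1 exon 9, chr2:198353807-198353836, minus strand: aaacgtattcaagaaatcattgAgcagtta
HSPD1P1, chr5:21883804-21883833, plus strand: aaacgtattcaagaaatcattgGgcagtta
EEF1A1 exon 6, chr6:74228203-74228232, minus strand: gtcgaaatgcaccatgaagctttgagtgaa
EEF1A1P6, chr7:22550717-22550746, minus strand: gtcgaaatgcaccatgaagctttgagtgaa
In HSP90AA1 the intron between exons 9 and 10 is 589 bp long, and the last 15 bases of exon 9 (lower case) joined to the first 15 of exon 10 (capitals) were found in the pseudogene HSP90AA2P with 0 differences.
HSP90AA1 exons 9 and 10 joined: aaaaaagttgaaaagGTGGTTGTGTCAAAC
HSP90AA2P, chr11:27910815-27910844, minus strand: aaaaaagttgaaaagGTGGTTGTGTCAAAC

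Fold enrichment over input, the authors' ratio at the summit, ranged from 2.90 to 13.7 among the 331 peaks, with a median of 5.85. It chose the peaks through the calling threshold and is given as a description. The peak with the highest value was in the 3′ UTR of YBX1, an mRNA-binding protein, in exon 8 of 8 (13.7). It was followed by a 3′ UTR peak of H2AZ1, which encodes the histone variant H2A.Z (13.5). HSP90AA1 took 3 of the 10 highest places, with coding peaks in exons 10 (12.9), 5 (11.7) and 9 (11.5). HSPD1 took 2 more, with a 3′ UTR peak in exon 12 (12.5) and a coding peak in exon 9 (11.9). The other 3′ UTR peaks at the top were in PABPC1, the poly(A)-binding protein (12.4), and in BTF3, a factor bound to nascent chains at the ribosome (10.99). The tenth was a coding peak of RPSA2 (10.2), whose summit window had 32 near-identical copies. The lowest values were 2.98 in RAN, the GTPase of nuclear transport, and 2.90 in both BSG, which encodes basigin, and RBM3, a cold-inducible RNA-binding protein. All 3 were 3′ UTR peaks in last exons.

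The gene families were counted by gene symbol and read against the background that 282 of 19132 protein-coding genes with more than 1 exon (1.47%) were given such a peak. With the second genes, of which 0 belong to a family counted here, it was 298 (1.56%). Chaperones were well above this background. Of 11 chaperonin genes, which fold proteins inside a closed chamber, 6 held a peak (54.5%), led by HSPD1 (12.5) and CCT5 (9.25). Of 18 genes of the HSP70 and HSP90 families, 6 did (33.3%), and they held 15 peaks, of which 10 were coding. HSP90AA1 (12.9) and HSP90AB1 (9.92), the inducible and the constitutive form of cytosolic HSP90, were highest among them. Smaller families with a large share were the replication-independent histones, with 4 of 8 genes, and the 14-3-3 proteins, which bind phosphorylated partners, with 3 of 6. The 14-3-3 genes were YWHAE (8.02), YWHAQ (7.12) and YWHAZ (6.27), and their 6 peaks were all in the 3′ UTR. Among the histone genes, H3-3A followed H2AZ1 with a fold enrichment of 7.91.

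Peaks were also found in genes for RNA-binding proteins and enzymes of energy metabolism. Of 30 hnRNP genes, whose proteins coat nuclear pre-mRNA, 12 held a peak (40%). Of their 16 peaks, 15 were in the 3′ UTR and 1, in HNRNPA2B1, was coding. PCBP2 had the highest fold enrichment (8.01), followed by HNRNPC and HNRNPA2B1 with the same value (7.67). Of 22 glycolytic enzymes, 8 held a peak (36.4%), led by LDHB, a subunit of lactate dehydrogenase, in exon 5 of 8 (9.89), and GAPDH in its last exon (8.30). The splicing factors counted as a family gave 4 of 56 genes (7.14%) but 8 peaks, of which SRSF6 alone held 4. SRSF11 (8.79) was the highest of these. RNA helicases gave 3 of 52 genes (5.77%), with DDX21 (5.76) and DDX5 (5.23) highest.

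In the translation machinery, 12 of 73 translation factors held a peak (16.4%). The initiation factor relative EIF4G2 (10.2) and the elongation factor subunit EEF1G (9.76) were highest, and 10 of the 14 peaks of this family were in the 3′ UTR. Among the ribosomal protein genes, most peaks were coding. Of 52 genes for large-subunit proteins, 7 held a peak (13.5%), and 5 of these 7 peaks were coding. RPL15 (9.76) and RPL4 (8.32) were highest. Of 35 genes for small-subunit proteins, 4 held a peak (11.4%), all of them coding, led by RPS6 (9.78) and RPS2 (8.02). For the mitochondrial ribosomal proteins, 1 of 78 genes held a peak (1.28%), which is near the background of 1.47%.

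Among cytoskeletal genes, both cytoplasmic actins, ACTG1 (7.72) and ACTB (7.52), held 2 peaks each, which is 2 of 6 actin genes (33.3%). They are named in addition to the rule, after their values were seen. Of 30 tubulin genes, 3 held a peak (10%), with the α-tubulins TUBA1C (9.16) and TUBA1B (7.91) highest. Of 25 peptidylprolyl isomerases, 3 held one (12%), PPIA (7.38) and PPIG (6.05) being highest. Mitochondrial carriers and ATP synthase gave 5 of 68 genes (7.35%), with the carriers SLC25A5 (8.59) and SLC25A3 (8.50) highest, and nuclear transport gave 4 of 57 (7.02%), with the importin KPNB1 (6.89) and the exportin XPO1 (5.58) highest. Families at or below the background included the zinc finger genes as counted by symbol, with 1 of 558 (0.179%, ZNF207). Genes of segmental duplications, with 1 of 187 (0.535%), were also among these families. The zinc finger count does not include ZFAND5 (8.46) and ZC3H15 (7.70), which held peaks and are named after their values were seen. None of the 331 peaks was given to the 83 genes counted for cell cycle kinases and cyclins or the 30 for mucins and tandem-repeat proteins. The same was true of the 19 genes for origin licensing and the 4 ubiquitin genes. The 83 genes do not include the cyclin genes CCNG1 (6.05) and CCNI (5.34), which each held a peak in the 3′ UTR. Both are named in addition to the rule, after their values were seen. Of all 282 genes, 96 belonged to at least 1 of the 28 families counted and 186 to none.

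Several peaks in 1 gene were found for 37 of the 282 genes, which held 86 of the peaks. In 16 of these genes the peaks were spread over at least 2 exons, and in 21 they were all in 1 exon. Peaks of 1 gene share their source, and the tests below that count every peak were repeated with 1 peak per gene, which changed none of the 5 calls. HSP90AA1 held 5 peaks, in exons 3, 5, 9, 10 and 11. The 5 exons with a peak were 269 to 1080 bp long, and the 5 later exons without one were 134 to 191 bp long, so that the lengths did not overlap. The same order was seen in HSP90AB1, where the exons with a peak (6, 10, 11 and 12) measured 269 to 395 bp and the 7 later exons without one 134 to 207 bp. In HSPA8, the constitutive HSP70, peaks lay over exons 5, 8 and 9 of 233 to 556 bp, and the 5 later exons without a peak were 153 to 210 bp long. In EEF1A1, the elongation factor that brings tRNA to the ribosome, exons 4, 6 and 8 of 257 to 2185 bp held a summit, and the 4 later exons without a summit measured 151 to 235 bp. The longest of these 4, exon 7, was partly covered by the peak whose summit is in exon 6. HSPD1 was the exception among these genes. Its exons 9, 11 and 12 with a peak measured 179 to 615 bp, and the longest of its 8 later exons without a peak measured 253 bp.

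**Figure D1:**
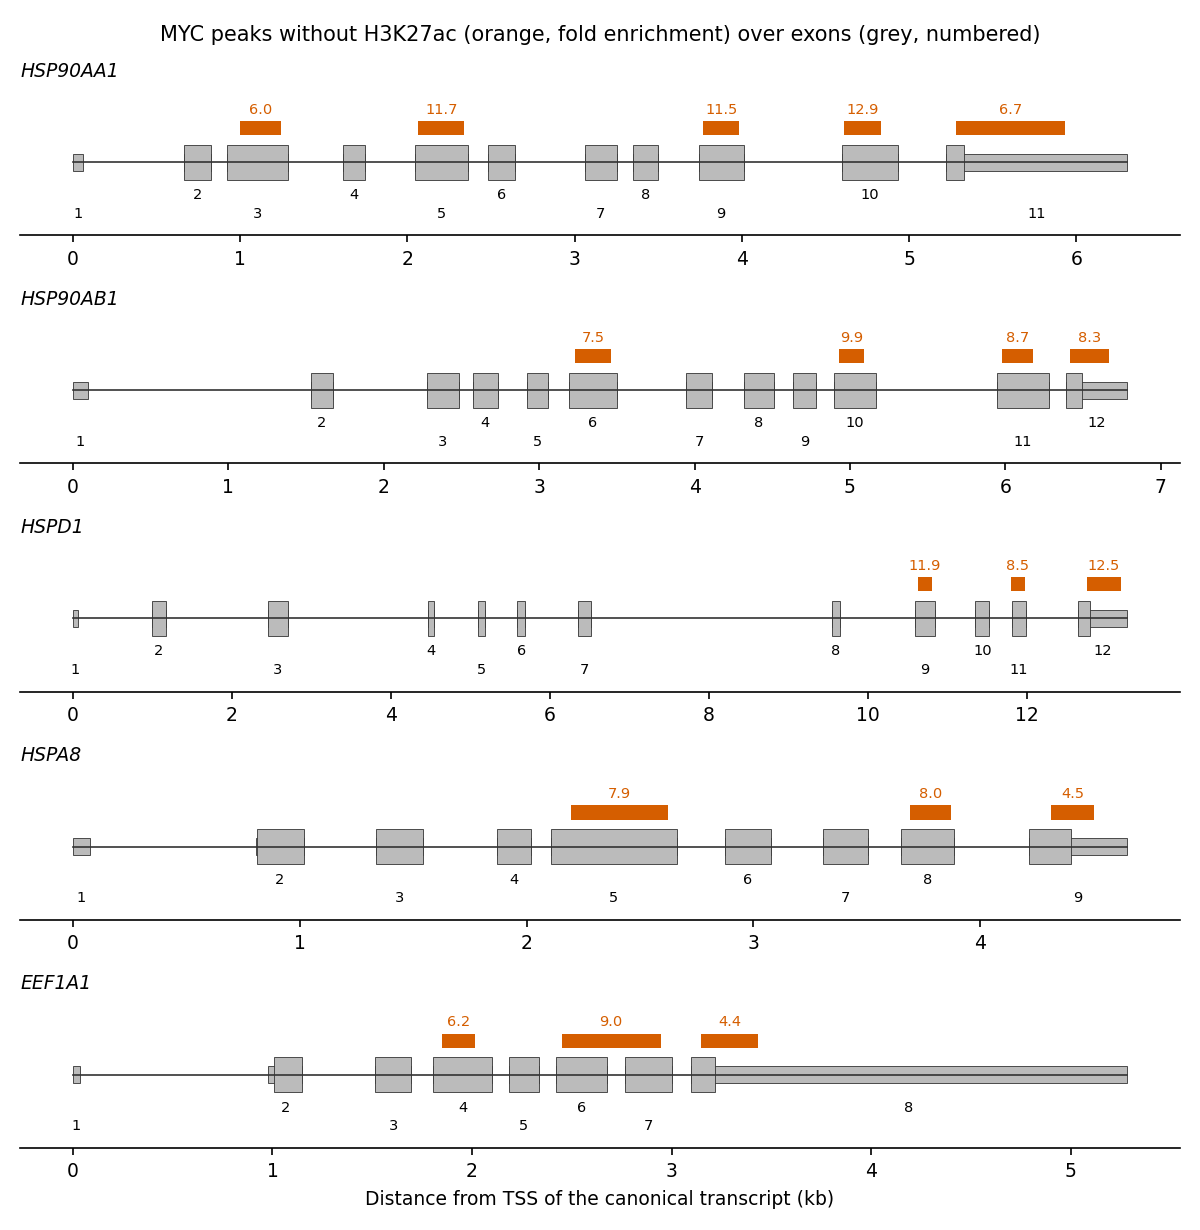
MYC peaks without H3K27ac (orange, with fold enrichment over input) along the canonical transcripts of HSP90AA1, HSP90AB1, HSPD1, HSPA8 and EEF1A1, with the distance from the TSS in kb on the x axis and exons numbered (grey, coding parts taller). The peaks lie within single exons, except that the EEF1A1 peak with a fold enrichment of 8.99 spans exons 6 and 7 and the peak over exon 11 of HSPD1 reaches 5 bp into the intron.

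The other genes with at least 3 peaks held them all in 1 long last exon. SRSF6, a splicing factor rich in serine and arginine, had 4 peaks in its exon 6 of 3541 bp, 1 in coding sequence (7.31) and 3 in the 3′ UTR (8.47, 4.45 and 4.36). SEPTIN2, a filament-forming GTPase, had 3 peaks in the 3′ UTR of exon 13, with values from 4.90 to 6.26. YWHAZ had 3 in the 3′ UTR of its exon 6 of 4230 bp, with values from 4.88 to 6.27. In all 3 genes, the remaining later exons were at most 305 bp long.

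The position within the genes was read from 1 transcript per peak, which was the canonical one for 321 of the 331 peaks. The summit was in the last exon for 296 peaks (89.4%). Coding summits made up 22.1% (exact Clopper-Pearson 95% interval 17.7% to 26.9%) and 3′ UTR summits 77.9% (73.1% to 82.3%), and 0 lay in a 5′ UTR. Of the 35 peaks outside the last exon, 34 were coding, and of the 296 in the last exon 39 were. Coding peaks had a median fold enrichment of 7.52, against 5.68 for 3′ UTR peaks. Among peaks with a −log10 q of at least 10, coding summits made up 44.9%. The exon number ranged from 2 to 87, with a median of 8. The summit lay 1085 to 289408 bp from the TSS of the transcript along the genome, with a median of 15743 bp. Along the spliced transcript, 233 of the summits (70.4%) were in the 3′ part beyond 50% of the length, and the counts rose from 19 between 10% and 20% of the length to 55 between 70% and 80%. The peak named here for LDHB also lies in a gene without a symbol (ENSG00000285854), and that of EEF1G in another (ENSG00000255508).

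**Figure D2:**
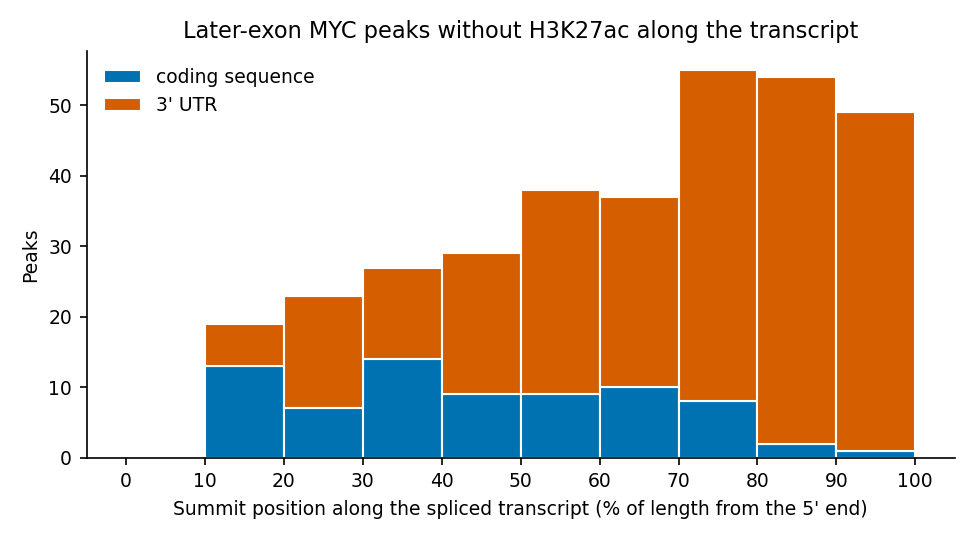
Number of the 331 peaks (y axis) by position of the summit along the spliced transcript, in bins of 10% of its length from the 5′ end (x axis), split into summits in coding sequence (blue) and in the 3′ UTR (orange). The bins between 70% and 80% and between 80% and 90% hold the most peaks, 55 and 54, and the first bin holds 0.

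For the position in the exon, the rule used the summit alone. The extent of the peak entered it through the bases shared with H3K27ac. Peaks were 155 to 1038 bp wide, with a median of 237 bp. Every base of the peak was in an exon of the transcript for 312 of the 331 peaks (94.3%), and with the exons of every transcript of the gene for 323. On exons of up to 400 bp, where a peak has little room, 36 of 46 peaks lay wholly inside the exon, 4 reached past it by up to 10 bp and 6 by more. A peak on these exons covered a median of 70.8% of the exon. The peak over exon 5 of LDHB was 158 bp wide in an exon of 174 bp, and stopped 4 bp and 12 bp inside its edges. The peak over exon 12 of DDX5 was 230 bp wide on an exon of 225 bp, and reached past its 3′ edge by 7 bp. The smallest share in exons of the transcript was that of a PABPN1 peak (45.1%), all of whose bases lie in exons of other transcripts of the gene, followed by ARHGEF38 (55.2%). PABPN1 was named after its values were seen. Another 28 MYC peaks had their summit in a later exon by the same rule for first exons but shared bases with an H3K27ac peak. For them, summits in pseudogene exons were not left out. Of these 28, 15 (53.6%) lay wholly in exons of the transcript. The 28 peaks were set apart by an overlap that depends on the extent of the peak, and this difference was not tested.

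**Figure D3:**
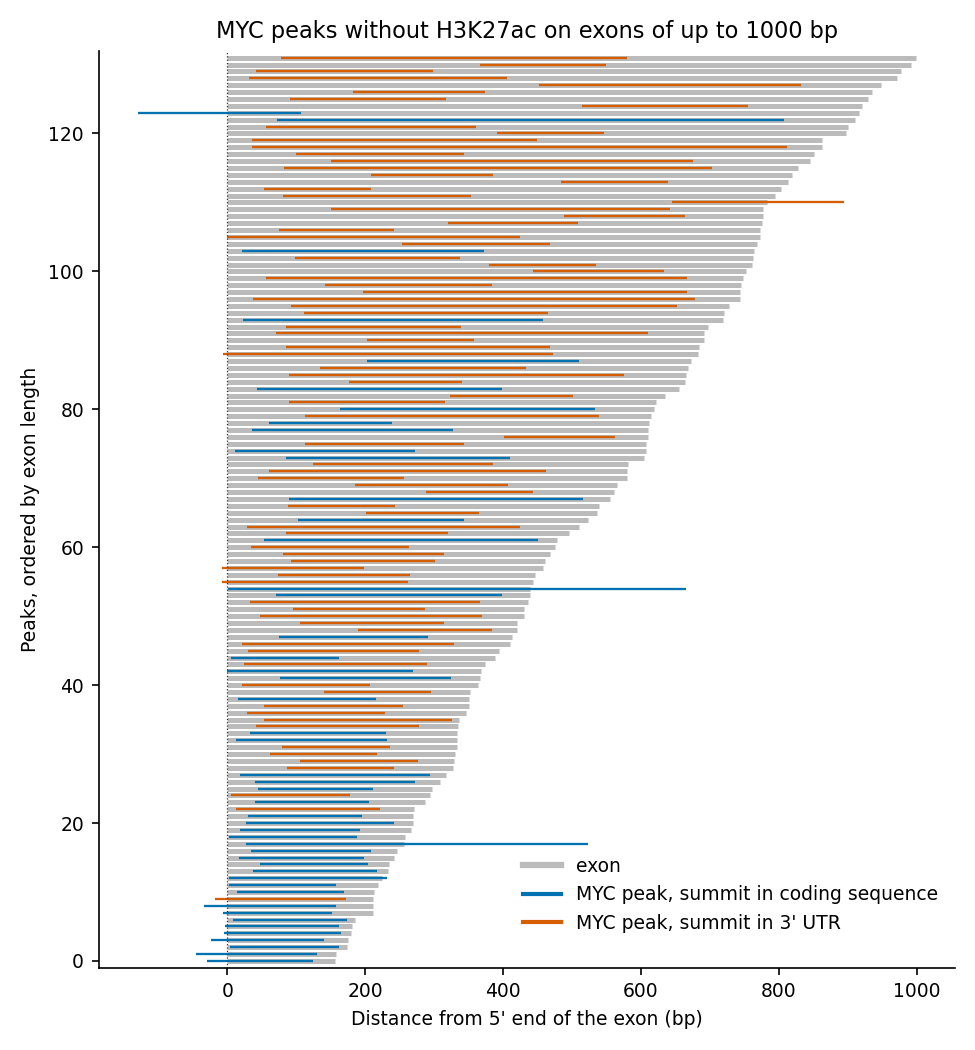
Extent of the peaks with a summit on an exon of up to 1000 bp, each drawn over its exon (grey) from the 5′ end of the exon in bp (x axis) and ordered by exon length (y axis), in blue where the summit is coding and in orange where it is in the 3′ UTR. Most lines stay within the grey bar, and on the shortest exons the peak takes up most of the exon.

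Introns of the same genes held almost no MYC peak without H3K27ac. In the canonical transcripts of the 274 genes whose peak lay in that transcript, 328 such summits fell in 874 kb of later exons and 1 in 6826 kb of introns. This 1 summit was in HNRNPD, in an exon of another transcript, and is itself among the 331. The genes were chosen for their exon peaks, so that the exon count is fixed in part by the rule, and the intron count is not. Of the 406 other MYC peaks without H3K27ac, 62 had their summit in an intron of any protein-coding gene.

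Long exons carried most of the peaks. An exon was counted as having a peak where it held the summit. Of the 2579 later exons in these 274 genes, 297 did. No MYC peak in the list was narrower than 155 bp, and of the 1633 exons shorter than that 0 had a peak (exact upper limit 0.226%). The share was 4.01% (2.61% to 5.87%) for exons of 155 to 299 bp and 72.9% (64.9% to 79.98%) for exons of 300 to 999 bp. It was 92.9% for exons of 1000 to 1999 bp and 93.7% for longer ones. The last exon was the longest one in 263 of the 274 genes (96.0%), so that the bins of long exons are mostly last exons. At a length of 155 to 299 bp, 6 of 7 last exons and 19 of 616 internal exons (3.08%) had a peak. At 300 to 999 bp, 92 of 95 last exons and 13 of 49 internal exons (26.5%) did. At 1000 to 1999 bp, 77 of 80 last exons and 1 of 4 internal exons did, and among longer ones 88 of 92 and 1 of 3. Each gene entered this count because it had at least 1 peak, and the shares describe these genes only.

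**Figure D4:**
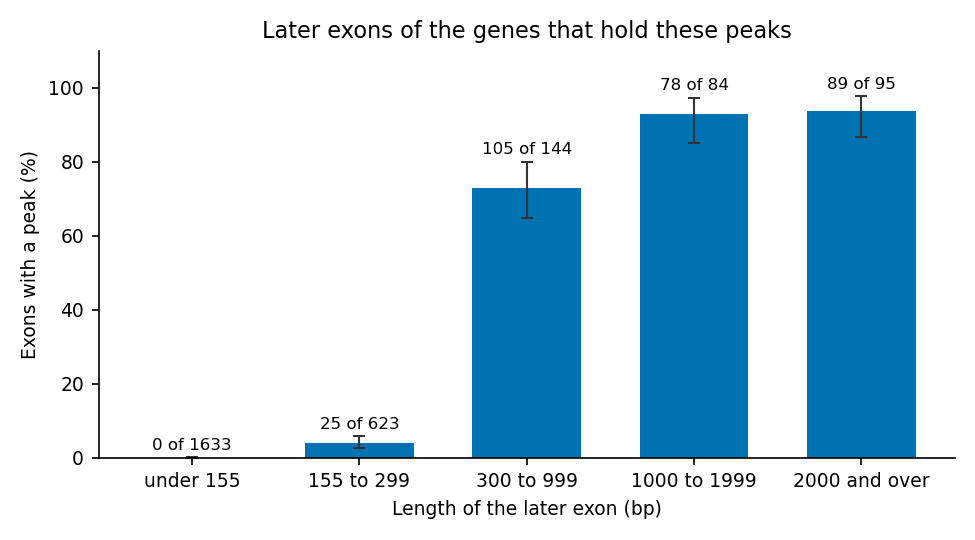
Share of the later exons with a peak in percent (y axis), by exon length in bp (x axis), for the 2579 later exons of the canonical transcripts of 274 genes, with exact 95% intervals. The share rises from 0 of 1633 exons under 155 bp to 89 of 95 exons of 2000 bp and over.

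The promoters of these genes carried H3K27ac although the peaks did not. An H3K27ac peak was found within 1 kb of a TSS of 279 of the 282 genes (98.9%, exact interval 96.9% to 99.8%), against 71.4% of the 19132 protein-coding genes with more than 1 exon. The 3 genes without one were COL4A2, a collagen chain, RPSA2 and a gene without a symbol (ENSG00000284526), named after their values were seen. A MYC peak with H3K27ac had its summit within 1 kb of a TSS in 72 of the 282 genes (25.5%, 20.5% to 31.0%), against 4.08% of all these genes. The distance from the later-exon peak to the nearest H3K27ac peak had a median of 3910 bp, and it was over 1 kb for 281 of the 331 peaks. At the threshold, the nearest peaks without shared bases were in the 3′ UTR of ARHGEF38, which touched an H3K27ac peak at a gap of 0 bp, in the 3′ UTR of NME4 at 9 bp and in HMGB2, a chromatin protein, at 134 bp. Their fold enrichment was 4.40, 5.06 and 7.57. Just beyond the threshold, later-exon MYC peaks shared 21 bp with an H3K27ac peak in RPL41 (8.83), 27 bp in the readthrough gene SENP3-EIF4A1 (9.82) and 32 bp in NOLC1 (4.87).

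A near-identical copy of the window of 100 bp on each side of the summit, that is, a match elsewhere in the genome to 80% or more of the window at an identity of 90% or more, was found for 191 of the 331 peaks (57.7%, exact interval 52.2% to 63.1%). This was more often than for MYC peaks with H3K27ac (10.6%, 83 of 784, two-sided Fisher's exact test with Benjamini-Hochberg adjustment over 6 comparisons, adjusted p = 4.09e-58). By the same exact test, it was less often than for the other peaks without H3K27ac (72.4%, 294 of 406, adjusted p = 5.09e-05). For pseudogene peaks the share was 80.7% (163 of 202). It is given with no test, since a pseudogene is by its annotation a copy of a gene and later-exon peaks were chosen outside pseudogenes. At an identity of 95% over 90% of the window, the share of later-exon peaks with a copy was 39.0%. With only peaks of a −log10 q of at least 10, it was 79.5%, and the difference from the other peaks without H3K27ac was no longer past the threshold of 0.05 (Fisher's exact test, adjusted p = 0.528). The tests compare peaks of 1 library and give no error between experiments.

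The copies were few for most peaks. There was exactly 1 for 62 peaks, 2 to 20 for 121 and more than 20 for 8, and the highest number was 57, for PPIA. Coding peaks had a copy in 61.6% (45 of 73) and 3′ UTR peaks in 56.6% (146 of 258). For 59 of the 191 peaks, a copy lay in an exon of a pseudogene. For 135 of the 191 peaks (70.7%), a copy lay in or within 3 kb of a pseudogene named after the gene. YBX1 had 5 copies, BTF3 10, GAPDH 10 and RPS2 37 of this kind or others. For 28 peaks a copy shared bases with another MYC peak. This peak was a pseudogene peak without H3K27ac for 22 of them, another peak without H3K27ac for 5 and a later-exon peak for 4, and a MYC peak with H3K27ac for 0. The highest of the 28 was the exon 9 peak of HSPD1 (11.9), with a copy under a MYC peak on chromosome 5. Next came exon 5 of HSP90AA1 (11.7), with copies under 2 MYC peaks on chromosome 11, and exon 3 of RPS6 (9.78), EEF1G (9.76) and RPL15 (9.76), each with a copy under a pseudogene peak. The α-tubulin genes TUBA1C and TUBA1B on chromosome 12 were copies of each other, and both were under a later-exon peak. A coding peak of ACTB had a copy under a later-exon peak on chromosome 17, and a coding peak of ACTG1 had one on chromosome 7.

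Of the 282 genes, 48 also had a MYC peak without H3K27ac in an exon of at least 1 pseudogene named after them (17.0%), 59 pseudogenes in all. Over all 19132 protein-coding genes with more than 1 exon, these genes included, it was 115 (0.601%). Among genes with a pseudogene named after them in the annotation, it was 48 of 159 (30.2%), against 115 of 2069 (5.56%) over all such genes. These shares were not tested. The fold enrichment was 12.5 in HSPD1 and 9.45 in its pseudogene, 13.7 in YBX1 and at most 9.79 in 2 of its pseudogenes, and 8.01 in HSPA8 and at most 10.4 in 2 of its pseudogenes. Over the 48 genes, the highest pseudogene peak was above the highest later-exon peak in 26 and not above it in 22. The part of reads shared between a gene and its copies in these values was not tested. Of the 140 peaks without a copy, 130 (92.9%) lay wholly in exons of the transcript, against 182 of 191 (95.3%) with a copy. Their median fold enrichment was 5.54 (2.90 to 10.2), against 6.07 (2.98 to 13.7) for those with a copy, and 16 of them had a −log10 q of at least 10. EIF4G2, with a peak of 621 bp in a last exon of 828 bp, had the highest fold enrichment without a copy (10.2).

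CACGTG was searched within 50 bp of the summit, where it reads the same on both strands. It was present in 1 of the 331 peaks (0.302%, exact interval 0.00765% to 1.67%). The share was 0.906% within 100 bp, 2.11% anywhere in the peak and 0% among peaks with a −log10 q of at least 10. Within 50 bp, it was 25.4% for MYC peaks with H3K27ac (199 of 784, two-sided Fisher's exact test, adjusted p = 1.96e-32), 0.990% for pseudogene peaks (2 of 202, adjusted p = 0.560) and 2.46% for the other peaks without H3K27ac (10 of 406, adjusted p = 0.0331). In the exact test, the last difference passed the threshold in the main comparison and not with an H3K27ac distance of 500 bp (adjusted p = 0.279), anywhere in the peak (0.280) or at a −log10 q of at least 10 (0.553). The single peak with the motif was in the 3′ UTR of ARIH1, a ubiquitin ligase, in exon 14 of 14, with a fold enrichment of 6.54 (chr15:72878399-72878575). Its CACGTG, in capitals, lies 8 bp from the summit.
ARIH1, chr15:72878506-72878535, plus strand: atatgttagataCACGTGtatacatacacc
The GC content from 100 bp before to 100 bp after the summit had a median of 39.3% in the later-exon peaks, 38.8% in the other peaks without H3K27ac, 45.8% in pseudogene peaks and 68.2% in MYC peaks with H3K27ac. The part of base composition in the share with CACGTG was not tested.

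**Figure D5:**
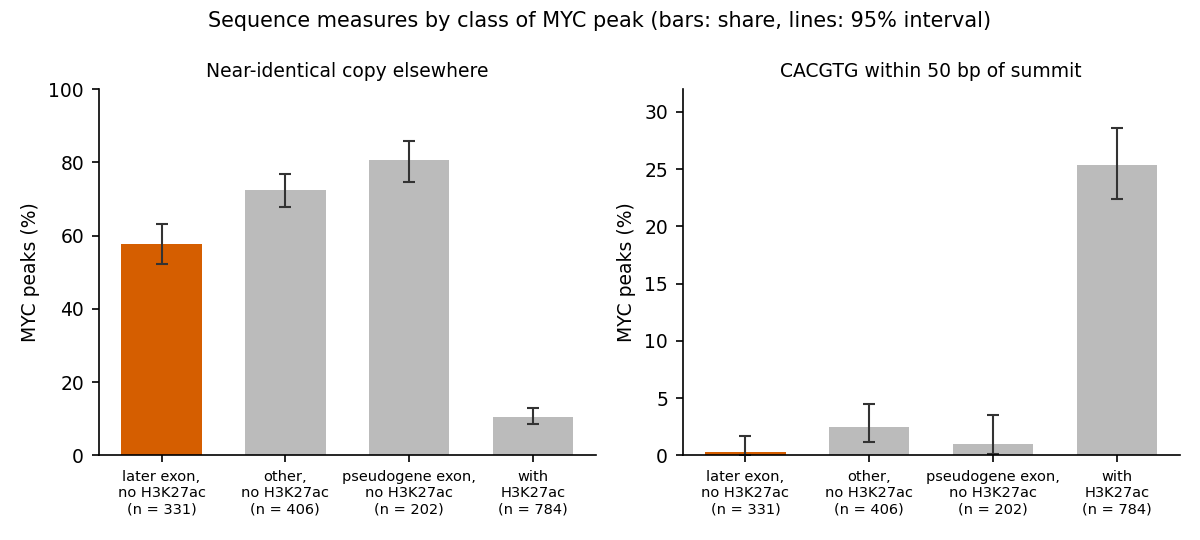
Share of MYC peaks in percent (y axes) with a near-identical copy of the summit window (left) and with CACGTG within 50 bp of the summit (right), for later-exon peaks without H3K27ac (orange) and the 3 other classes of MYC peaks (grey), with exact 95% intervals. Later-exon peaks have a copy in 57.7% and CACGTG in 0.302%, against 10.6% and 25.4% of the peaks with H3K27ac.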

How the data were processed

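The reads of the 4 samples had been aligned to hg19 and peaks called by the authors, with Bowtie2 (2.2.4) and MACS2 (2.1.1) named in the submitters' processing notes and MACS2 run at its default settings for narrow peaks. The study lists total and unique mapped reads but does not define unique. By its numbers, unique reads made up a much smaller part of the mapped reads for MYC than for input. How reads that match several places or duplicates were treated before peak calling is not given in the sources used here. The fold enrichment is the ratio over the control at the summit, as deposited by the authors. The −log10 p and −log10 q values are also the authors', and the −log10 q set the stricter threshold of 10. The score column deposited by the authors was not used.

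GENCODE release 44, in its version lifted to GRCh37, gave the genes and exons. Exon numbers follow the canonical transcript where its exon holds the summit. Where 2 genes qualified for a peak, it was counted for the one with the summit in its canonical transcript, then for one with a symbol, for one that is no readthrough gene and for one with a coding summit, and otherwise by name. Copies were searched with BLAST (2.17.0, word size 20). Calculations used Python (3.11.15) with numpy (2.4.6), scipy (1.17.1), pandas (2.3.3), pysam (0.24.0) and intervaltree (3.1.0), samtools (1.23.1) was used for the genome, and figures were drawn with matplotlib (3.10.9). Intervals are exact Clopper-Pearson 95% intervals and cover counting error over peaks only. P-values were adjusted over 6 comparisons, of which the share with a copy in pseudogene peaks is reported as a value only. The calculations were tested on simulated data.

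The members, families and comparisons were chosen with earlier results of these data known. Named are the 10 highest and 3 lowest peaks by fold enrichment, genes with at least 3 peaks (up to 8), the 2 highest genes of each family with at least 3 genes, up to 5 peaks with CACGTG, the 3 peaks on each side of the H3K27ac threshold, and up to 5 peaks with a copy under a MYC peak. Alternatives changed the q threshold, the H3K27ac overlap, transcripts, summit, windows, identity and TSS distance.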

Additional observations from a re-analysis of the deposited data

How the results depend on the processing

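Of 56 alternative values, 45 kept their direction and side of the threshold or, where nothing was tested, stayed within the exact 95% interval of the main share or within 1.5 times the main count. For the share with CACGTG this interval is wide, and it holds the 0.906% found within 100 bp as well as the main 0.302%. With only MYC peaks of a −log10 q of at least 10, the number of later-exon peaks without H3K27ac was 78 in place of 331, the share with a coding summit 44.9% in place of 22.1%, and the number of genes with several peaks 11 in place of 37. Fewer peaks were then compared. The difference in the share with a near-identical copy was −5.34 percentage points from the other peaks without H3K27ac (Fisher's exact test, adjusted p = 0.528, range over the alternatives 3.45e-09 to 0.528). The difference in CACGTG from these other peaks was −2.07 points at this threshold, −0.991 with H3K27ac within 500 bp counted as marked and −1.58 anywhere in the peak, with adjusted p from 0.00707 to 0.553 over the alternatives. The cause was not tested. Other readings of the rule gave 308 to 352 peaks. Among them were 328 when first exons of any protein-coding gene excluded a summit and 352 when a first exon of the same gene could overlap the exon, both chosen after seeing the data. With the exon part of the peak as the window, also chosen after seeing the data, the share with a copy was 57.7%, and at an identity of 95% over 90% of the summit window it was 39.0%. With second genes counted, again chosen after seeing the data, 38 genes held several peaks. No paired analysis was possible because each antibody has 1 library. Read depth is not given in the peak lists, and exons without a peak may hold signal below the calling threshold.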

Other observations

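Outside the 331 peaks, 21 MYC peaks without H3K27ac had their summit in a later exon that a first exon of another transcript of the same gene overlaps. They were named after their values were seen. The highest was in RPS24, a protein of the small ribosomal subunit (12.02, with 10 near-identical copies), followed by the nucleolar protein NCL (10.5) and the nuclear RNA-binding protein HNRNPU (9.16), both coding and without a copy. None of the 21 had CACGTG within 50 bp of the summit.

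MYC peaks with H3K27ac and a summit in a later exon numbered 28, by the same rule for first exons but with pseudogene exons not left out. Of these, 10 had CACGTG within 50 bp of the summit, and their median GC content was 63.2%. The summit lay at a median of 39.1% of the spliced transcript, against 68.3% for the 331 peaks.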
